A study of Ovis aries with 2 samples.

Results

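miR-1246 and miR-320a are small RNAs that have been traced in human cells to routes without the usual Drosha step. They are 2 of the 81 mature miRNAs listed in extracellular vesicles from uterine luminal fluid (ULF) of day 14 ewes. They were chosen by the name of their precursor in the deposited tables, mir-1246 and mir-320a, ignoring copy numbers, and both were listed in both libraries. ULF was flushed from the uteri of Rambouillet ewes, either bred to an intact ram and pregnant or cyclic, and vesicles were precipitated from it with ExoQuick-TC. RNA of 4 ewes was pooled for each status, which gave 1 library of pregnant and 1 library of cyclic ewes, sequenced on the Ion Torrent platform. With 1 pooled library per condition the differences have no replicate check and the variation among ewes is unknown, so each comparison is of these libraries and no test between conditions was made.

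Most miRNAs are cut from a hairpin in the nucleus by Drosha and then in the cytoplasm by Dicer, and the mature strand guides an Argonaute protein to messenger RNAs that pair with its seed, bases 2 to 8. The precursor of miR-320a is instead transcribed as a short capped hairpin, as shown in mouse and human cells, which skips Drosha and goes to Dicer directly. In human cells small RNAs with the miR-1246 sequence have been traced to the U2 small nuclear RNA, a part of the spliceosome, and are abundant in vesicles. A further noncanonical miRNA of these libraries is miR-451, a red blood cell miRNA whose hairpin is cut by Argonaute 2 without Dicer.

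The mature sequences were as follows, with bases 2 to 8 in capitals. They are the cattle sequences to which the reads were compared, as the deposited table gives them with T in place of U, and they show that the noncanonical miRNAs have different seeds, whereas miR-200a and miR-200c, the epithelial miRNAs nearest to miR-1246 in abundance in the cyclic library, have related seeds.
miR-1246: aATGGATTtttggagcagg
miR-320a: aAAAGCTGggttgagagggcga
miR-451: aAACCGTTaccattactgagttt
miR-200a: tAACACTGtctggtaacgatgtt
miR-200c: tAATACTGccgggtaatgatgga

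miR-1246 was 19 bases long and thereby the shortest of the 81 sequences, whose median length was 22 and whose longest was 25 bases. miR-320a had 22 bases. Both began with A, as did 17 of the 81 sequences, whereas 56 began with T. The GC content was 42.1% for miR-1246 and 54.5% for miR-320a, against a median of 45.5%, and 8 sequences had a higher GC content than miR-320a. No other listed sequence had the seed of miR-1246 or of miR-320a, although 47 of the 81 shared a seed with at least 1 other. The nearest listed sequences were 9 edits away, miR-378 for miR-1246 and miR-106b for miR-320a, where an edit is 1 base changed, inserted or lost. By comparison, miR-200a lay 3 edits from miR-141 and miR-200c 3 edits from miR-200b. Neither name matched any of the 106 miRNA genes of the sheep RefSeq annotation (ARS-UI_Ramb_v3.0), so no genome position is given.

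By the reads assigned to it, miR-1246 was among the most abundant miRNAs of the vesicles. None of these reads was identical to the full cattle mature sequence, as described below. It had 272 counts in the cyclic library, a share of 3.43% of the 7921 mature miRNA counts (95% interval 3.04 to 3.86%, exact Clopper-Pearson). In the pregnant library it had 68 counts, a share of 2.42% (1.88 to 3.06%) of the 2809 counts. Reads carry no molecular identifiers, so the intervals cover counting error only. miR-1246 ranked 8th of the 80 miRNAs listed in the cyclic library and 14th of the 54 listed in the pregnant library.

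miR-320a was of middle abundance in the cyclic library and had the same rank in the shorter list of the pregnant library. It had 48 counts in the cyclic library, a share of 0.606% (0.447 to 0.803%), and 16 counts in the pregnant library, a share of 0.570% (0.326 to 0.923%). It ranked 40th of the 80 miRNAs listed in the cyclic library and 40th of the 54 listed in the pregnant library. The table lists a miRNA only from 10 copies, so that the pregnant count of miR-320a lay 6 counts above the lowest value that could be listed.

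**Figure D1:**
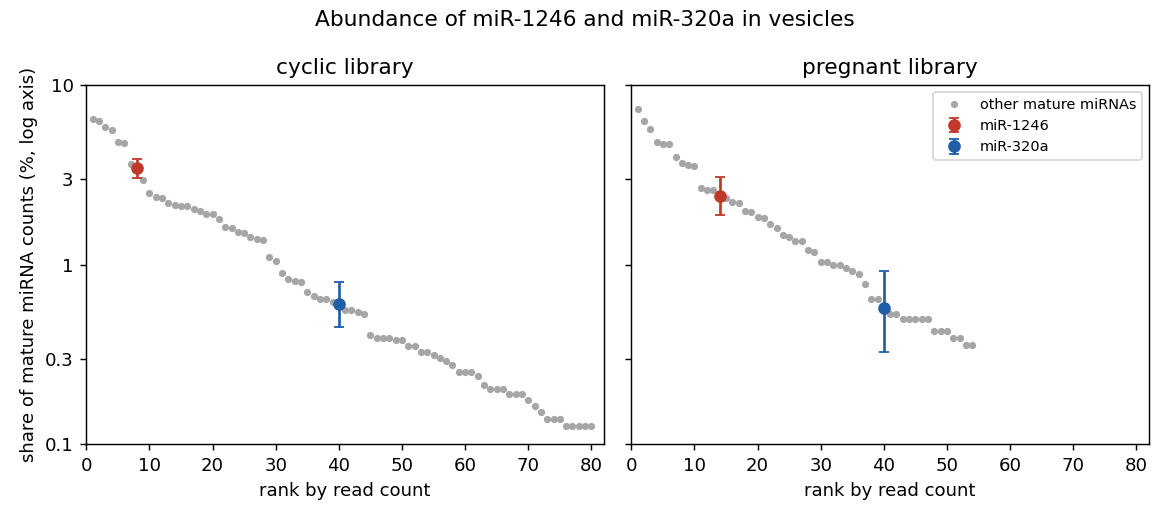
Share of mature miRNA counts in percent (log axis) against rank by read count in the cyclic and the pregnant library. Each grey point is a mature miRNA, coloured points are miR-1246 and miR-320a, and bars are exact 95% counting intervals. miR-1246 stands at rank 8 and 14 and miR-320a at rank 40 in both, of 80 and 54 listed miRNAs respectively.

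Neighbours in rank, which by definition have the closest counts, could not be told apart from either miRNA by counting error. In the cyclic library miR-1246 lay between miR-200a with 289 and miR-200c with 233 counts, at 0.941 (0.795 to 1.11) and 1.17 (0.976 to 1.40) times their counts. In the pregnant library it lay below miR-200a and miR-30d with 73 counts each and above miR-125b with 66. miR-320a lay between miR-103 with 49 and miR-29c and miR-30c with 44 counts each in the cyclic library. In the pregnant library it lay between miR-9 and miR-30e with 18 counts each and miR-424 and a miR-423 sequence with 15 each.

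miR-1246 exceeded miR-320a in both libraries. There were 5.67 miR-1246 counts per miR-320a count in the cyclic library (4.16 to 7.87) and 4.25 in the pregnant library (2.44 to 7.85). The quotient of these values, pregnant over cyclic, was 0.750 (exact conditional interval 0.390 to 1.51), which does not depend on how the libraries are scaled. A difference between miR-1246 and miR-320a in their change between the libraries was therefore not detectable at this depth. Together both miRNAs made up 4.04% of the counts in the cyclic library (3.62 to 4.50%) and 2.99% in the pregnant library (2.39 to 3.69%).

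The share of miR-1246 was 1.42-fold lower in vesicles from pregnant than from cyclic ewes. The ratio of shares was 0.705, with an exact conditional binomial 95% interval of 0.532 to 0.923. At the share of the cyclic library 96.5 counts would have been found in the pregnant library, in place of the 68 observed. The interval lay below 1, but the ratio did not reach the 2-fold set for a call. Of the 81 miRNAs 2 were called lower (2.47%) and 5 higher (6.17%), and 6 (7.41%) had an interval below 1, which were miR-223 (at its bound of 9 copies), miR-451, miR-200b, miR-1246, miR-200a and miR-21. Other abundant miRNAs had intervals above 1, among them miR-200c, miR-10a, miR-191 and miR-125a. An interval that excludes 1 therefore does not by itself set miR-1246 apart. At 272 cyclic counts, a call of lower needed at most 48 pregnant counts.

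For miR-320a no difference between the libraries was detectable. Its ratio was 0.940 (0.498 to 1.68), and 17.0 pregnant counts would have been found at the share of the cyclic library, in place of 16. The interval does not show that the shares were alike, since it held ratios from about a 2.01-fold decrease to a 1.68-fold increase. At 48 cyclic counts, an interval below 1 needed at most 7 pregnant counts, which the table would have listed as 0, so the listing minimum left no room for a call of lower on a listed count. A call of higher needed at least 35.

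Across the 53 miRNAs listed in both libraries the median log2 ratio was 0.22, with quartiles of -0.17 and 0.48, and 21 ratios were below 1. These 53 had to reach the minimum of 10 copies in the pregnant library too, which had 2809 counts against 7921. This leaves out low ratios among scarce miRNAs and can raise the median. Places within the 53 therefore need not hold among all listed miRNAs. miR-1246, with a log2 ratio of -0.50, was the 6th lowest of the 53. miR-320a, with -0.09, was the 19th lowest. The miRNAs with the log2 ratio nearest to that of miR-1246 were miR-200a (ratio 0.712), miR-27b (0.687) and miR-19b (0.749). Nearest to miR-320a were miR-30b (0.925), miR-16a (0.910) and let-7c (0.974). This likeness rests on 1 ratio from 2 libraries. Every interval of these 6 miRNAs overlapped that of the miRNA it was nearest to, which follows from picking them as the nearest.

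**Figure D2:**
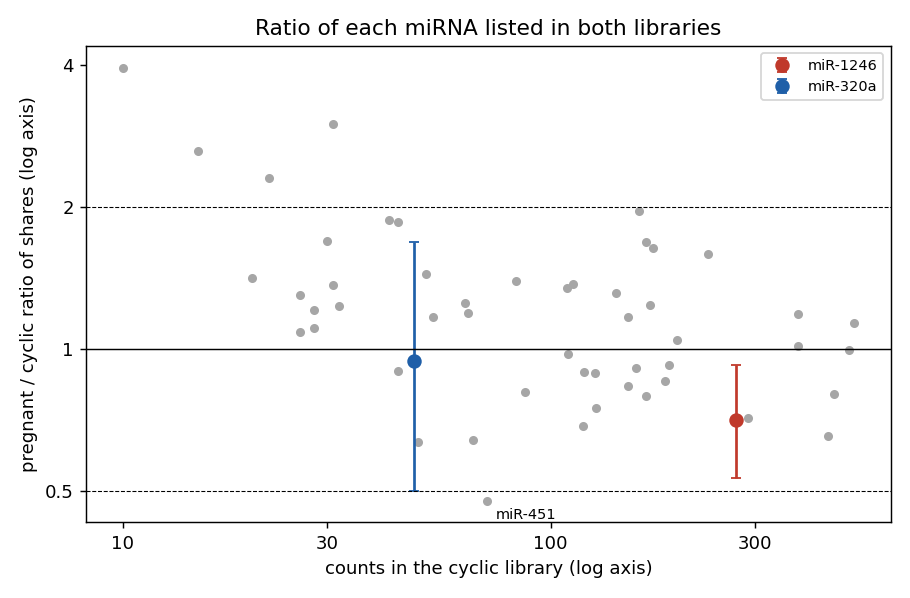
Ratio of shares, pregnant over cyclic (log axis), against counts in the cyclic library (log axis) for the 53 miRNAs listed in both libraries. Coloured points are miR-1246 at 0.705 and miR-320a at 0.940 with 95% counting intervals, grey points are the other miRNAs, the solid line is a ratio of 1 and dashed lines are 2-fold.

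Both ratios depended on the quantity that the counts were divided by. The pregnant library held 119605 reads and the cyclic library 94735, although fewer of the former were mature miRNA. Relative to all reads, miR-1246 made up 0.0569% in the pregnant (0.0442 to 0.0721%) and 0.287% in the cyclic library (0.254 to 0.323%), and was 5.05-fold lower (3.86 to 6.69). miR-320a made up 0.0134% (0.00765 to 0.0217%) and 0.0507% of all reads (0.0374 to 0.0672%) and was 3.79-fold lower (2.11 to 7.15). On this scale 58 of the 81 miRNAs (71.6%) were called lower, so these calls do not set either miRNA apart. More reads other than miRNA, fewer vesicles of a source and less miRNA per vesicle cannot be told apart in these pools.

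Canonical miRNAs that are often used as references gave a scaling of another kind. Of the 9 on this list 7 were listed in both libraries, namely let-7a, miR-26a, miR-191, miR-16a, miR-16b, miR-103 and miR-107. Relative to each in turn, the ratio of miR-1246 was below 1 against 6 of the 7. It ranged from 0.418 (0.285 to 0.610) against miR-191 to 1.11 (0.535 to 2.50) against miR-103. Its interval was below 1 against let-7a, miR-26a and miR-191, and only against miR-191 was the ratio below 0.5 with such an interval. miR-191 itself had a ratio of 1.69 (1.30 to 2.18). The ratio of miR-320a ranged from 0.557 (0.280 to 1.06) against miR-191 to 1.48 (0.577 to 3.92) against miR-103, and each of the 7 intervals included 1.

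**Figure D3:**
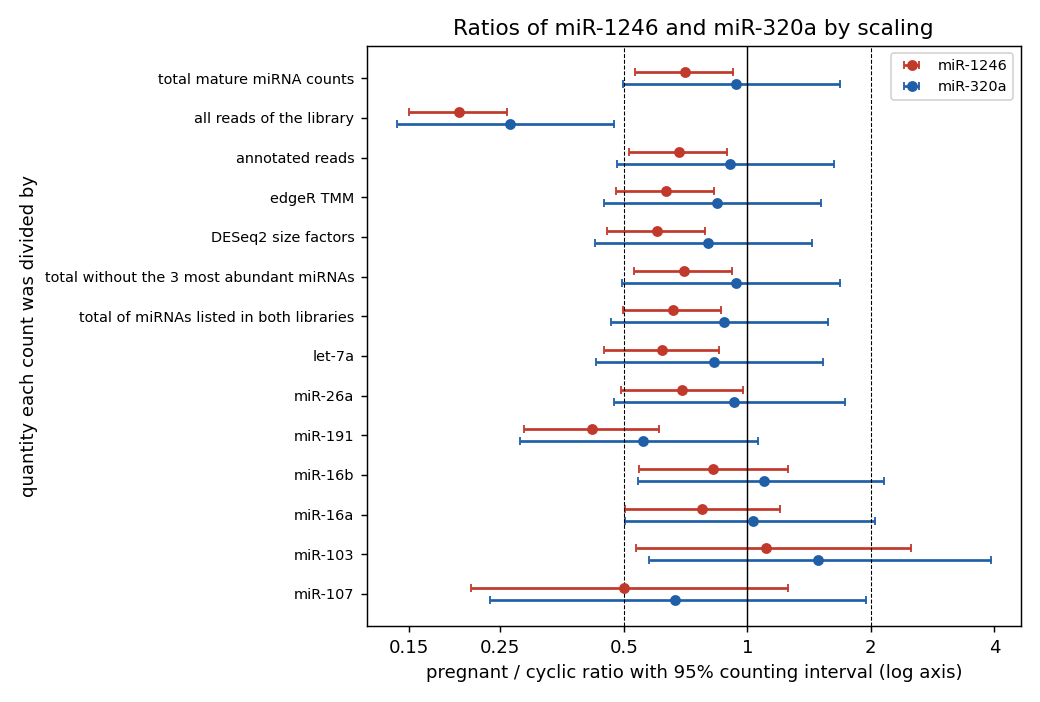
Ratio, pregnant over cyclic (log axis), of miR-1246 and miR-320a with 95% counting intervals, for each quantity the counts were divided by. The solid line is a ratio of 1 and dashed lines are 2-fold. Both ratios are below 0.5 relative to all reads, and miR-1246 lies left of miR-320a in every row because their quotient of 0.750 is fixed.

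The reads behind each miRNA differed in how they matched the reference. An exact match here is a read identical to the full cattle mature sequence. None of the 272 cyclic and none of the 68 pregnant counts of miR-1246 was exact, which allows a share of up to 1.10% and 4.41% respectively (3 counts of the total). Of the miR-320a counts, 22 of 48 in the cyclic library (45.8%, 31.4 to 60.8%) and 5 of 16 in the pregnant library (31.2%, 11.0 to 58.7%) were exact. These shares could not be told apart between the libraries, at an odds ratio of 0.537 (0.127 to 2.02). Whether the reads of miR-1246 differed from the reference in length or in a base cannot be read from the table. The annotation report of each library gives such a split only over all miRNAs. Of 5502 cyclic and 2078 pregnant reads split this way, 74.3% and 74.0% were mutant variants, which are counted apart from exact reads and length variants.

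A lack of exact matches was common. It held for 58 of the 81 sequences (71.6%), of which miR-1246 was the 6th most abundant after let-7a, miR-21, miR-200b, miR-26a and miR-200a. Over all mature miRNA counts 9.80% in the cyclic (9.15 to 10.5%) and 11.0% in the pregnant library (9.83 to 12.2%) were exact. The rank neighbours of miR-1246 in the cyclic library fell on both sides, with no exact match among the 289 counts of miR-200a and 159 among the 233 of miR-200c (68.2%, 61.8 to 74.2%). miR-451 had none among its 71 counts. Among the 23 sequences with any exact match in the cyclic library the median share was 46.4%, close to that of miR-320a, and 12 of them had a higher share than miR-320a. miR-320a took 2.84% of all exact counts of the cyclic library (1.79 to 4.26%) and ranked 13th by exact counts.

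**Figure D4:**
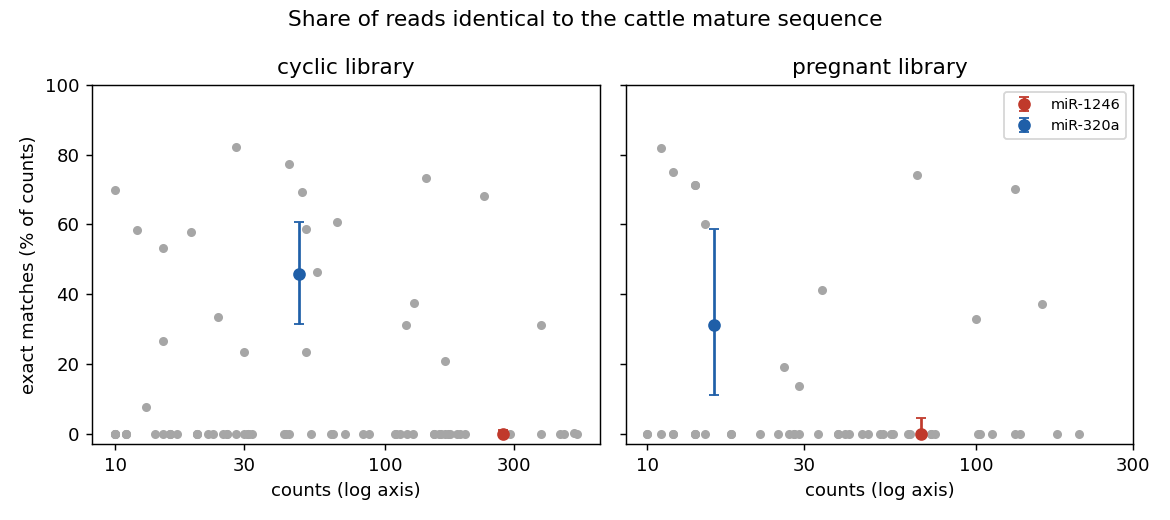
Exact matches as a percentage of counts against counts (log axis) in the cyclic and the pregnant library. Grey points are the other listed miRNAs, and coloured points are miR-1246 at 0% in both, with a bar up to the 3-count limit, and miR-320a at 45.8% and 31.2%, with exact 95% intervals.

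Each of the pair holds a run of 1 base, shown here in capitals. The run of T in miR-1246 spans bases 7 to 11, and the run of A in miR-320a spans bases 1 to 4.
miR-1246: aatggaTTTTTggagcagg
miR-320a: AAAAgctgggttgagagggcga
The run of 5 in miR-1246 was the longest of any listed sequence. Of the 11 sequences whose longest run was 4 bases, 4 had no exact match, compared with 32 of the 44 with a longest run of 3 and 21 of the 25 with 2. miR-1246 is the only sequence with a run of 5, so these counts say nothing on a run of that length, and the part of the run in its lack of exact matches was not tested.

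The miRNAs also differed in their precursors. Among the cattle miRNA precursors of the reference, all counts of miR-1246 in both libraries were assigned to 1 only. This assignment does not tell such reads from pieces of the U2 RNA with that sequence, and their source was not tested. miR-320a has 2 precursor copies of the same mature sequence, and none of its counts was assigned to only 1 of them, which allows a share of up to 6.25% in the cyclic and 18.8% in the pregnant library. Which copy the reads came from therefore cannot be told. The same held for miR-19b and miR-92a, whereas 57 of the 81 sequences had all their counts on 1 precursor.

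Of the 14 noncanonical miRNAs on the list only miR-1246, miR-320a and miR-451 were listed in the vesicles. All 3 had ratios below 1 relative to mature miRNA counts, beside 21 of the 53 miRNAs listed in both libraries, and 2 of these 3 are the miRNAs described here. The third, miR-451, was called lower, beside 2.47% of all 81, from 71 counts in the cyclic to 12 in the pregnant library (ratio 0.477, 0.235 to 0.885). The median log2 ratio of the 3 was -0.50, that of miR-1246, beside 0.22 over the 53. The 53 are limited by the listing minimum in the pregnant library, which leaves out low ratios among scarce miRNAs. These comparisons with the 53 therefore do not show that noncanonical miRNAs were lower than others. miR-484, which like miR-320a is made from a capped hairpin, and miR-1260b were listed at 0 in both libraries and so had at most 9 copies in each. The other 9 were in neither deposited table.

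Of 15 miRNAs often found in vesicles 8 were listed. Besides miR-1246 and miR-320a these were miR-21, miR-16a, miR-16b, miR-451, miR-92a and miR-223. Of the 8, miR-92a was called higher (ratio 2.63, 1.18 to 5.85) and miR-451 and miR-223 lower, the latter from 56 cyclic counts to at most 9 copies, beside 6.17% called higher and 2.47% called lower of all 81. These 3 calls fell among the 6 listed besides miR-1246 and miR-320a. Of the 7 listed in both libraries 6 had ratios below 1, with a median log2 ratio of -0.23, beside 21 of 53 and a median of 0.22 over all miRNAs listed in both. Without miR-1246 and miR-320a it was 4 of 5. The listing minimum leaves out low ratios among scarce miRNAs from the 53, so these fractions do not set vesicle miRNAs apart.

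Markers of possible source cells gave the following picture. All 7 epithelial miRNAs on the list were listed, 5 of them in both libraries, with 15.8% of the counts in the cyclic and 14.5% in the pregnant library, and none was called, beside 6.17% called higher and 2.47% lower of all 81. They went both ways, since miR-200a (0.712, 0.543 to 0.924) and miR-200b (0.653, 0.522 to 0.810) had intervals below 1, as miR-1246 did, and miR-200c (1.59, 1.27 to 1.97) had one above 1. Of the 3 erythroid miRNAs only miR-451 was listed, with 0.896% of cyclic and 0.427% of pregnant counts, and its interval also lay below 1. Of the 4 leukocyte miRNAs only miR-223 was listed, in the cyclic library (56 counts). Its entry of 0 for pregnant ewes leaves room for up to 9 copies and does not mean absence. By RT-qPCR the paper found miR-223 in ULF vesicles of both pregnant and cyclic ewes. Of the 6 early embryo miRNAs, miR-302a to miR-302d were listed at 0 in both libraries, which allows at most 9 copies in each, and miR-367 and miR-371 were in neither deposited table, as was the liver miRNA miR-122. The part of these cells in the level of miR-1246 or miR-320a was not tested.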

How the data were processed

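Small RNA of ULF extracellular vesicles was analysed in a pool of 4 pregnant and a pool of 4 cyclic ewes at day 14, with 1 library per pool. The authors ran the Ion Torrent reads through CLC Genomics Workbench in its small RNA workflow (version not given in the sources used here), with a length window of 15 to 55 bp, cattle mature miRNAs from release 19 of miRBase as the reference, fewer than 2 mismatches, a minimum of 10 sequence copies, and grouping per mature miRNA. The reports also tally reads with 2 mismatches (423 for pregnant and 941 for cyclic ewes). That the minimum acted on the grouped count is inferred from the table, whose lowest listed count was 10 in both libraries while 6 pregnant and 8 cyclic listed counts held 1 to 9 exact matches, and the bound of 9 copies for an entry of 0 rests on this. The deposited values are whole-number counts per mature miRNA, not normalized, and each is split further into exact matches and into reads unique to 1 precursor. An annotation report per library gives numbers of reads. Range, difference and fold change columns of the authors were not used, nor were 6 columns that match no sample described here.

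Counts were divided by the total of mature miRNA counts, 2809 and 7921. A miRNA was called where the ratio was at least 2-fold and its exact conditional binomial 95% interval excluded 1, over all 81 miRNAs, with an entry of 0 set at that bound. Ratios between miRNAs were given as conditional odds ratios with exact intervals. A share of 0 was given the limit of 3 counts. A read covers a whole miRNA, so levels were not divided by length. Alternatives were scaling by all reads, annotated reads, the TMM factors of edgeR 4.0.16, the size factors of DESeq2 1.42.0 (both in R 4.3.3), totals without the 3 most abundant miRNAs, exact or unique reads only, minimums of 20 and 50 copies, and the second table, which held equal counts for all 81 sequences. Scaling by each reference miRNA, by the total without miR-1246 and by miRNAs listed in both libraries was added after the data were seen. Python 3.11.15, NumPy 2.4.6, SciPy 1.17.1 and matplotlib 3.10.9 were used, and the intervals were tested on simulated Poisson counts. Such counts hold counting error only, so this says nothing on variation among ewes or library preparation. Besides miR-1246 and miR-320a, their neighbours in rank, the 3 miRNAs nearest in log2 ratio and any of the same seed were named. Members and lists were chosen with earlier results of these data known. A plan to treat exact matches and unique reads as a check of the quotient of both miRNAs could not be carried out, since 1 of them was at 0 in each.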

Additional observations from a re-analysis of the deposited data

How the results depend on the processing

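The ratio of miR-1246 stayed below 1 and that of miR-320a stayed below 1 under annotated reads, TMM, DESeq2's size factors, totals without the 3 most abundant miRNAs, totals without miR-1246 and totals of miRNAs listed in both libraries, from 0.603 to 0.702 for miR-1246, with every interval below 1, and from 0.804 to 0.936 for miR-320a, with every interval including 1. Neither was called there. TMM, DESeq2's size factors and the total of miRNAs listed in both libraries rest on the miRNAs listed in both, so the listing minimum affects these scalings too. Both miR-1246 and miR-320a were called lower relative to all reads (0.198 and 0.264), and miR-1246 also relative to miR-191 (0.418). The direction turned, with no call, relative to miR-103 for miR-1246 (1.11) and relative to miR-103 (1.48), miR-16a (1.03) and miR-16b (1.10) for miR-320a. With unique reads the ratio of miR-1246 was 0.700, and with exact matches that of miR-320a was 0.573 (0.169 to 1.55). Exact matches gave no ratio for miR-1246, nor unique reads for miR-320a, and the quotient of both had no value under either. With a minimum of 50 copies miR-320a was left out.

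The number of miRNAs called higher among all tested was 5. It was 0 relative to all reads, 4 with DESeq2's size factors, 2 with a minimum of 20 copies and 0 with a minimum of 50. With exact matches it was 2 and with unique reads 2. The number called lower was 2, and it was 58 relative to all reads, 1 with exact matches and 1 with unique reads. Under annotated reads, TMM, DESeq2's size factors and the total of miRNAs listed in both libraries it was 3 each. Whether the same miRNAs were called was not compared. No paired analysis was possible because each condition has 1 library. The 16 pregnant counts of miR-320a and the minimum of 10 copies limit what can be seen of it.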
